A study of Mus musculus with 29 samples.

Results

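The IL-1 family and inflammasome genes described here are Il1a, Il1b, Il1rn, Il1r1, Il18, Il33, Casp1, Casp4, Nlrp3 and Pycard. They were chosen by name, as the rows of the count files whose Ensembl identifier maps to these symbols. Earlier results of these data were known at the time, so the choice was not independent of them. All 10 were found among 25746 genes counted in 29 mouse cortex samples, and all 10 passed the filter on low counts that left 17031 genes for testing.

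IL-1α and IL-1β, encoded by Il1a and Il1b, are the founding cytokines of the IL-1 family. Both signal through the receptor Il1r1, and Il1rn encodes the antagonist that occupies this receptor without signalling. IL-18 and IL-33 are relatives with receptors of their own, and IL-33 is a nuclear alarmin that glia in the brain carry and that is released when cells are damaged. IL-1β and IL-18 are made as inactive precursors. An inflammasome is the complex that activates them: a sensor such as Nlrp3 gathers the adaptor Pycard (ASC), which recruits the protease Casp1. Casp4, the mouse gene of caspase-11, senses bacterial lipopolysaccharide in the cytosol and cuts the pore-forming protein gasdermin D. In the injured brain, microglia and infiltrating macrophages are known sources of IL-1.

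The mice were adults of both sexes with a photothrombotic stroke of the right sensorimotor cortex, and RNA was taken at 21 days post injury (dpi). Stroked groups were WT (C57BL/6J, 4 mice), WT with tacrolimus from the day of stroke (WT-Tacr acute, 3 mice), WT with tacrolimus started later (WT-Tacr delayed, 5 mice), Rag2-/- (3 mice) and NSG (3 mice). The non-stroked groups held 4 WT, 3 Rag2-/- and 4 NSG samples. Tacrolimus, given by a subcutaneous osmotic pump, blocks calcineurin and so T cell activation. The Rag2 deletion leaves mice without mature T and B lymphocytes. NSG mice combine the scid allele of Prkdc with a loss of Il2rg on a NOD background and also lack NK cells, so any NSG difference from WT cannot be told apart from a difference between the NOD and C57BL/6J backgrounds. Non-stroked mice on tacrolimus, or mice with a pump without the drug, were not analysed here, and WT and both WT-Tacr groups therefore share the same 4 non-stroked WT samples. The sources used here describe the non-stroked tissue both as the side opposite a stroke and as tissue of naïve mice. The sample titles carry the prefixes Imm2 (20 samples) and TF (9 samples), called cohorts here. All non-stroked samples were in Imm2 and all WT-Tacr delayed samples in TF, while stroked WT mice were split 2 and 2, and WT-Tacr acute mice 1 and 2. No label states that samples of a group came from separate cages or days, and p-values measure the spread between these samples.

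Total counts ran from 17789044 to 43403413 per sample, with medians of 37223696 in Imm2 and 23155303 in TF. Rag2 had 0 to 2 counts in every sample, so its loss could not be checked. Prkdc lay between 16.7 and 43.9 counts per 1000000 (CPM) in all samples, and since scid is a point mutation its level checks nothing. Il2rg overlapped between genotypes without stroke, at 0.681 to 1.05 CPM in NSG and 0.716 to 0.871 CPM in WT mice, so the non-stroked libraries show no loss of its RNA. After stroke it was 0.784 to 0.979 CPM in NSG and 2.11 to 3.46 CPM in WT mice. The labelled tissue was checked by marker lists: 5 cortical neuron markers summed to 2969 to 5699 CPM and 5 astrocyte markers to 4721 to 7741 CPM over all samples. Of 5 T cell markers, Cd3d, Cd3g and Cd8a had no count in any NSG sample and Cd3e at most 1, but non-stroked WT mice also had at most 4 counts of each. The sum of the 5 markers was nearly all Cd4 and was not lower in NSG mice, at 3.66 to 35.6 CPM without stroke beside 3.47 to 9.71 CPM in WT mice. Markers of choroid plexus, a tissue outside the cortex, summed to 4.54 to 1573 CPM, with the highest value in stroked Rag2-/- replicate 1.

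Libraries of the WT-Tacr acute group stood apart from each other. The summed level of 6 macrophage and monocyte markers (Ccr2, Ly6c2, Cd68, Ms4a7, F13a1 and Lyz2) was 41.3 CPM in replicate 1, 19.1 CPM in replicate 2 and 484.1 CPM in replicate 3. Non-stroked samples lay between 14.0 and 21.5 CPM and all other stroked samples between 172.8 and 1070 CPM, so replicate 2 was within the non-stroked range. For replicates 1 and 2 the mouse number in the sample title also differed from that in the name of the deposited count table, and the title was followed.

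**Figure D1:**
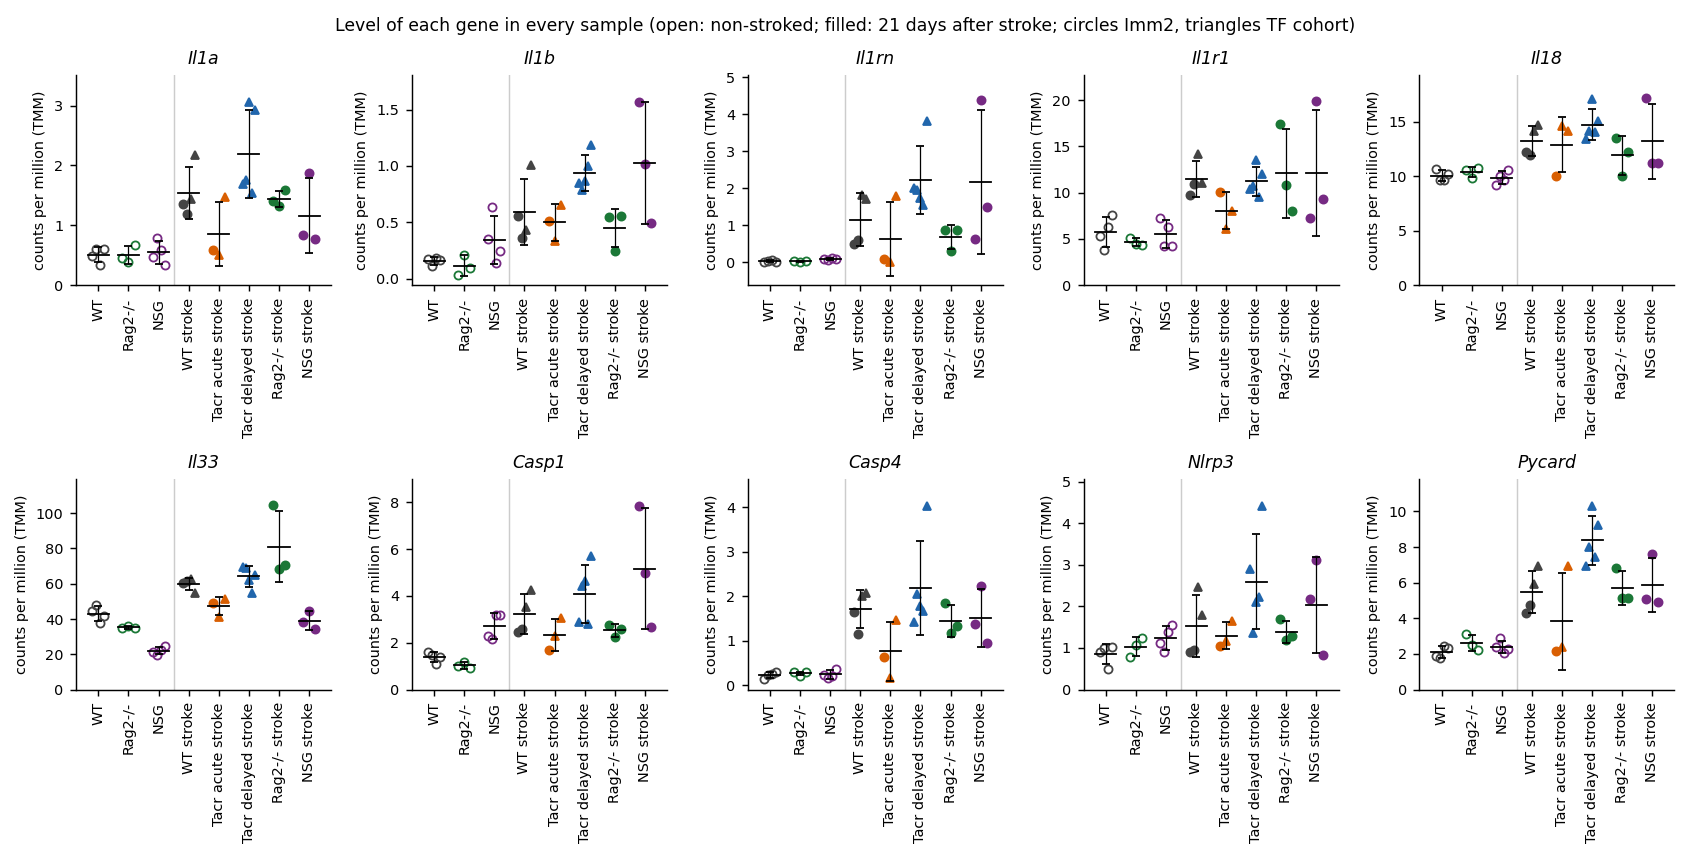
Level of each of the 10 genes in every sample, in TMM-scaled CPM on a linear axis, by group. Open symbols are non-stroked and filled symbols stroked mice, circles the Imm2 and triangles the TF cohort, and horizontal lines with bars the mean and SD of a group. Casp4 and Pycard are higher in every stroked WT, WT-Tacr delayed, Rag2-/- and NSG mouse than in any non-stroked mouse. Il33 is lower in non-stroked NSG than in non-stroked WT mice, and 2 of the 3 WT-Tacr acute mice lie near the non-stroked level for Il1a, Il1rn and Pycard.

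Promoter windows of all 10 genes were found in RefSeq on GRCm38.p6, 16 windows in all, each reaching from 250 bases before a transcription start to 50 bases after it. They are shown for the pair of genes with the largest stroke responses (Casp4 and Il1rn), for Il1b as the founding cytokine and for Il33, whose level differed between NSG and WT mice. The first listed window is printed where a gene has several. The strand is that of the gene. Capitals mark every match, on either strand, to GGG, any 5 bases and CC, the outer letters shared by many NF-kB sites.
Casp4, chr9:5308599-5308898, plus strand: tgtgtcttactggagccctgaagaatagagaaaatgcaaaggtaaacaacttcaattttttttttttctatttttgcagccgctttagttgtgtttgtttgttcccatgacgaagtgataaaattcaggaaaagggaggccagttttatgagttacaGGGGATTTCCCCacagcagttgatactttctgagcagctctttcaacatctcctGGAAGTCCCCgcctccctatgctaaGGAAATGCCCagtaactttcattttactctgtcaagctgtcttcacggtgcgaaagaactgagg
Il1rn, chr2:24336610-24336909, plus strand: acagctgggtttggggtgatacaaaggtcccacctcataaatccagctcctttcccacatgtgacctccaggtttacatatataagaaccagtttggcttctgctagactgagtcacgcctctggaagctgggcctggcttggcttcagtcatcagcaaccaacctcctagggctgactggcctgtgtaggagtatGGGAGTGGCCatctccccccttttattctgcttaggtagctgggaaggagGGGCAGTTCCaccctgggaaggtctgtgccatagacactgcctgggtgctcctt
Il1b, chr2:129371090-129371389, minus strand: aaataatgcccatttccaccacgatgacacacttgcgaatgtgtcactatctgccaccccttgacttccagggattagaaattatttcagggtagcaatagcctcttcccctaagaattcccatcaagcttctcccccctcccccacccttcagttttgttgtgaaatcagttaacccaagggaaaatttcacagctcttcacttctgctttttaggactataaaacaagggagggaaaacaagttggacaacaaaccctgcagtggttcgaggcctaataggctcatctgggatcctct
Il33, chr19:29924863-29925162, plus strand: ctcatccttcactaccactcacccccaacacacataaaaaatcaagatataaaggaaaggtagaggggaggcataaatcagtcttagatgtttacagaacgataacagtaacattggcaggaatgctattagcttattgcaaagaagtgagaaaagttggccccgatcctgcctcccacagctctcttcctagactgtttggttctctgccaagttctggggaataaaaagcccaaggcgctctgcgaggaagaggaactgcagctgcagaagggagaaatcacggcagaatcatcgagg

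The Casp4 window held 3 marked runs, at bases 158 to 169, 212 to 221 and 237 to 246. The first of them, GGGGATTTCCCC, holds overlapping matches on both strands. The Il1rn window held GGGAGTGGCC at bases 197 to 206 and GGGCAGTTCC at bases 247 to 256, and both other Il1rn windows held GGGTTTTTCC. Neither the Il1b window nor the Il33 windows held a match. Over all 10 genes, 9 of 16 windows, belonging to Il1rn, Il1r1, Casp1, Casp4 and Nlrp3, held at least 1 match, beside 50.8% of the 32851 promoter windows of the whole table. The AP-1 letters TGANTCA were in 2 of 16 windows (Il1a and Il1rn; 7.81% of all windows), the TATA letters TATAAA in 6 of 16 (13.6%), the C/EBP letters TTGNNNAA in 11 of 16 (36.7%), the PU.1 letters GAGGAAGT in 1 of 16 (Pycard; 3.2%) and the STAT letters TTCNNNGAA in 0 of 16 (8.3%). Both strands were searched. The gene counts do not show which start was used, and a match describes letters only.

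In non-stroked samples the genes spanned a wide range of levels. Per kilobase of exon, mean levels in non-stroked WT mice (n = 4) were 14.9 CPM for Il33 and 9.75 CPM for Il18. Casp1 (0.932 CPM per kb), Il1r1 (0.900 CPM per kb) and Pycard (0.554 CPM per kb) followed. Il1a stood at 0.257, Nlrp3 at 0.212, Il1b at 0.0826 and Casp4 at 0.0607 CPM per kb. Il1rn was nearly absent at 0.00362 CPM per kb, with 0 to 2 counts per library. In stroked WT mice the order was the same down to Il1a, but Casp4 (0.462 CPM per kb) stood above Nlrp3 (0.378), Il1b (0.309) and Il1rn (0.208 CPM per kb). The difference of Casp1 and Il1r1 was smaller than their spread over mice (CV 16.4% and 28.2%), as was that of Il1a and Nlrp3 (CV 24.0% and 28.2%). The total exon length came from GENCODE M21 on GRCm38, where Il1a, Il1b and Il1rn lie on chromosome 2 and Casp1 (chr9:5298517-5307265) ends shortly before the start of Casp4 (chr9:5308828-5336783) on the same strand of chromosome 9. The annotation has genes on the opposite strand over parts of Il1a, Il1b, Il18 and Pycard. Whether counting used strand is not stated, so reads of such pairs may not be told apart. The overlapping Gm45205 had at most 24 counts, where Pycard had at least 57. Bco2, over the start of Il18, had at most 163 counts, where Il18 had at least 303.

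The first question was what stroke did in WT mice, where 9 of the 10 genes were higher at 21 dpi and the exception was Nlrp3. The comparison used edgeR's quasi-likelihood test with Benjamini-Hochberg adjustment over all genes, and a gene passed at an adjusted p below 0.05. Of all genes tested, 26.9% passed in either direction. The median log2 fold change of the members was 1.29 and that of all genes tested -0.000445, with Il1rn above the median also at its lower bound. In bulk tissue, more cells of a type and more RNA per cell cannot be told apart. The summed markers of the cells known to carry these genes moved too: 7 microglia markers from 242.1 to 281.7 CPM up to 429.2 to 576.3 CPM, the 6 macrophage and monocyte markers from 14.0 to 16.3 up to 172.8 to 553.6 CPM, and 5 neutrophil markers from 0.142 to 0.962 up to 0.555 to 4.64 CPM. None of these lists had a marker at 0 in either WT group, and their part in the changes was not tested.

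Among the ligands and their antagonist, Il1rn showed the largest response. Its levels in stroked WT mice were 0.480, 0.583, 1.83 and 1.71 CPM, and in non-stroked WT mice 0, 0.0270, 0.0530 and 0 CPM. The groups did not overlap, and the mean of 1.15 CPM (SD 0.717, n = 4) was at least 13.5-fold higher than a floor of 3 counts per non-stroked library (adjusted p = 0.000754, edgeR). Il1b was 0.555, 0.361, 0.435 and 1.01 CPM after stroke and 0.171, 0.109, 0.186 and 0.165 CPM without stroke. Every stroked mouse was above every non-stroked mouse, with a log2 fold change of 1.88 ± 0.48 (SE, adjusted p = 0.00537, edgeR), on 10 to 33 counts per stroked library. Il1a rose from a mean of 0.508 to 1.54 CPM, a log2 fold change of 1.59 ± 0.35 (adjusted p = 0.00207, edgeR), again without overlap. For the abundant members the change was smaller: Il33 by 0.48 ± 0.12 (adjusted p = 0.0038, edgeR) and Il18 by 0.40 ± 0.13 on the log2 scale (adjusted p = 0.0275, edgeR). Il18 fell short of the threshold without non-stroked replicate 3 or 4, or without stroked replicate 3 or 4. The receptor Il1r1 was 9.72 to 14.2 CPM after stroke and 3.75 to 7.59 CPM without it, a log2 fold change of 1.0 ± 0.27 (adjusted p = 0.009, edgeR).

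Among the inflammasome genes, Casp4 changed most. Its levels were 1.64, 1.14, 1.999 and 2.08 CPM in stroked and 0.142, 0.218, 0.239 and 0.302 CPM in non-stroked WT mice, on 5 to 11 counts per non-stroked library. This was a log2 fold change of 2.90 ± 0.45 (adjusted p = 7.67e-05, edgeR). The adaptor Pycard rose from 1.77 to 2.44 CPM to a range of 4.32 to 6.96 CPM, a log2 fold change of 1.37 ± 0.27 (adjusted p = 6e-04, edgeR). The protease Casp1 rose from a mean of 1.40 to 3.21 CPM (log2 fold change 1.20 ± 0.28, adjusted p = 0.00299, edgeR). The sensor Nlrp3 was 0.909 and 0.945 CPM in the stroked mice of the Imm2 cohort and 2.48 and 1.80 CPM in those of the TF cohort, beside 0.504 to 1.02 CPM in non-stroked mice, all of Imm2. Its log2 fold change of 0.81 ± 0.38 did not pass (adjusted p = 0.116, edgeR).

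Within the Imm2 cohort alone, 5 of the 10 genes passed after stroke in WT mice: Il1a (1.33 ± 0.37), Il1rn (adjusted p = 0.0043, edgeR), Il33 (0.51 ± 0.15), Casp4 (2.61 ± 0.37) and Pycard (1.11 ± 0.21 on the log2 scale). All 10 values were above 0 there, with Nlrp3 at 0.11 ± 0.41. With the cohort as a covariate 7 passed, with Il18 (adjusted p = 0.293, edgeR) and Casp1 (adjusted p = 0.053, edgeR) short of the threshold. The TF cohort has no non-stroked sample and gives no value of its own. Shares of all genes passing in these fits are not given here, so the counts cannot be set against them.

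**Figure D2:**
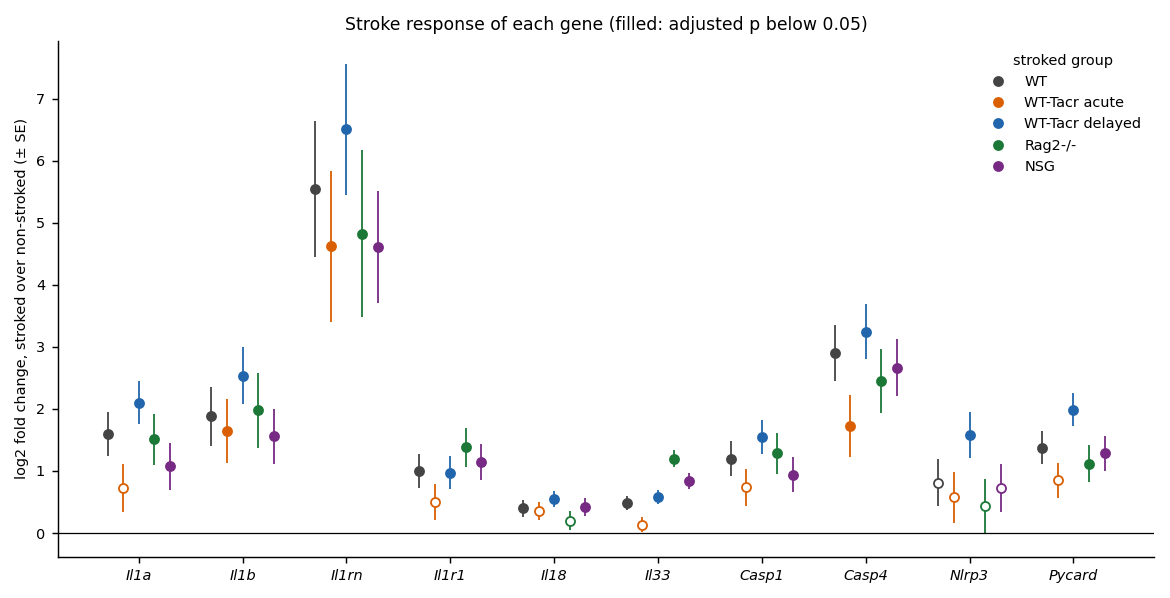
Log2 fold change of each gene in 5 stroked groups against non-stroked mice (WT, WT-Tacr acute and WT-Tacr delayed against the same 4 non-stroked WT mice). Points are edgeR estimates with SE bars, filled where the adjusted p was below 0.05. All 50 points lie above 0, Il1rn and Casp4 have the largest values, and the WT-Tacr acute group has the fewest filled points. The Il1rn estimates rest on 0 to 4 counts per non-stroked library and depend on how near-zero counts are handled.

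Stroke in the T and B cell deficient Rag2-/- mice raised 8 of the 10 genes against non-stroked Rag2-/- mice, where 8.23% of all genes passed. Il18 (log2 fold change 0.20 ± 0.15, adjusted p = 0.491, edgeR) and Nlrp3 (0.43 ± 0.44, adjusted p = 0.63, edgeR) did not pass. Il33, the alarmin, had the smallest adjusted p of the 10 genes. Its levels were 104.4, 68.3 and 70.5 CPM in stroked and 35.1, 36.1 and 34.8 CPM in non-stroked Rag2-/- mice, a log2 fold change of 1.20 ± 0.13 (adjusted p = 1.5e-05, edgeR). Replicate 1 with the highest level also had the highest choroid plexus (1573 CPM) and myelin (9792 CPM) marker sums of all samples, and their part in its value was not tested. The summed level of 5 astrocyte markers was also higher without overlap, at 4757 to 5225 CPM in non-stroked and 6259 to 7741 CPM in stroked Rag2-/- mice, and its part in the Il33 change was not tested. Without that library the log2 fold change was 0.97 ± 0.12 and still passed (adjusted p = 0.000127, edgeR). Casp4 was 1.84, 1.16 and 1.32 CPM after stroke and 0.283, 0.213 and 0.286 CPM without it (2.45 ± 0.51 on the log2 scale, adjusted p = 0.00361, edgeR). Il1rn was 0.860, 0.305 and 0.858 CPM, at least 7.08-fold above the floor of 3 counts per non-stroked library. The other genes that passed were Il1r1, Casp1, Pycard, Il1a and Il1b, with log2 fold changes of 1.12 to 1.98. The count of genes that passed was 4 without non-stroked replicate 1 or 4, 5 without non-stroked replicate 2 or stroked replicate 3, and 2 without stroked replicate 1, where Il33 and Casp4 passed. The shares of all genes passing in these fits are not given here, so a change in the count cannot be told apart from a change over all genes.

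Stroke in NSG mice raised 9 of the 10 genes against non-stroked NSG mice, beside 21.9% of all genes, and Nlrp3 again did not pass (0.73 ± 0.39, adjusted p = 0.183, edgeR). Il1rn was 0.633, 4.37 and 1.499 CPM in stroked mice and 0.0880, 0.0510, 0.113 and 0.0930 CPM in non-stroked mice, on 2 to 4 counts each, a log2 fold change of 4.61 ± 0.90 (adjusted p = 0.00101, edgeR). Stroked replicate 2, the highest for Il1rn, was also highest for Il1a, Il1r1, Il33, Casp4, Nlrp3 and Pycard. Its macrophage and monocyte marker sum was 826.6 CPM beside 265.2 and 292.8 CPM in the other stroked NSG mice. Casp4 was 1.37, 2.22 and 0.949 CPM after stroke against 0.152 to 0.371 CPM (2.67 ± 0.47 on the log2 scale, adjusted p = 0.000397, edgeR). Il33 was 38.5, 44.8 and 34.1 CPM against 19.6 to 24.4 CPM (0.84 ± 0.12, adjusted p = 9.78e-05, edgeR). Il1a, Il1b, Il1r1 and Casp1 passed although the groups overlapped, and none of these 4, nor Il18, passed when only the NSG samples were fitted, where 4 genes passed. The count was 6 without non-stroked replicate 1 or stroked replicate 1, and 10 without stroked replicate 3. For these fits too the shares of all genes passing are not given here.

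The WT-Tacr acute mice addressed the response under early calcineurin blockade. Against non-stroked WT mice 3 of the 10 genes passed, where 8.54% of all genes passed: Il1b, Il1rn and Casp4. Il1b was 0.511, 0.333 and 0.657 CPM, above every non-stroked WT mouse (log2 fold change 1.65 ± 0.51, adjusted p = 0.0463, edgeR). Leaving out any single acute or non-stroked WT library took Il1b short of the threshold (adjusted p = 0.0532 to 0.284, edgeR). Casp4 was 0.633, 0.166 and 1.47 CPM and Il1rn 0.0730, 0 and 1.78 CPM in the same order of mice. Both genes were at the non-stroked level in replicate 2 and within the stroked WT range in replicate 3, which is also the order of the macrophage and monocyte marker sums, whose part was not tested. The adjusted p was 0.0332 for Casp4 (1.72 ± 0.49) and 0.024 for Il1rn (edgeR), whose mean was at least 7.22-fold above the floor of 3 counts per library. Pycard was 2.17, 2.37 and 6.95 CPM and did not pass (0.85 ± 0.29, adjusted p = 0.0606, edgeR). None of the 10 passed without replicate 3 or without non-stroked replicate 1, 3 or 5, Il1rn alone passed without non-stroked replicate 4, and 5 passed without replicate 1. The shares of all genes passing without a library are not given here, so these counts cannot be set against them. None passed in the Imm2 cohort, which has 1 acute mouse, or with the cohort as a covariate.

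In WT-Tacr delayed mice all 10 genes were higher than in non-stroked WT mice, where 55.2% of all genes passed. The median log2 fold change of the members was 1.79, and the groups did not overlap for any of the 10. How many of all genes showed no overlap is not given here, so this cannot be set against it. Casp4 was 1.41, 2.05, 1.78, 1.68 and 4.02 CPM, with a log2 fold change of 3.25 ± 0.44 (adjusted p = 2.91e-06, edgeR). Pycard was 6.92, 8.0, 10.3, 7.47 and 9.23 CPM (1.99 ± 0.26, adjusted p = 1.96e-06, edgeR). Il1rn was 2.01, 1.95, 1.74, 1.54 and 3.82 CPM, at least 25.9-fold above the floor of 3 counts per non-stroked library. Nlrp3, which did not pass in the other stroked groups, was 1.35 to 4.42 CPM here (1.58 ± 0.36, adjusted p = 0.000838, edgeR). The delayed mice were all in the TF cohort and the non-stroked mice all in Imm2. With the cohort as a covariate, which leans on the stroked WT and acute mice found in both cohorts, 5 genes passed (Il1b, Il1rn, Il33, Casp4 and Pycard) and Nlrp3 was at 0.69 ± 0.50 (adjusted p = 0.418, edgeR). How many of all genes passed in that fit is not given here.

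Treated and untreated stroked WT mice were then compared directly. Between WT-Tacr acute and WT, 0 of the 10 genes and 0% of all genes passed (edgeR), with 3 members (Il1a, Il33 and Casp4) and 2168 genes at an unadjusted p below 0.05 and 0 members passing in DESeq2. All 10 estimates were below 0, although those of Il1b, Il18 and Nlrp3 rose above 0 under some alternatives. The 95% interval of the log2 difference was -2.08 to -0.27 for Casp4, -1.65 to -0.09 for Il1a and -0.33 to 0.25 for Il18. Without acute replicate 3, 4 genes passed as lower: Casp4 (-1.97 ± 0.47), Il1a (-1.48 ± 0.41), Il1rn (0 and 3 counts in these libraries) and Pycard (-1.26 ± 0.23). The acute libraries left had macrophage and monocyte marker sums of 19.1 and 41.3 CPM, whose part was not tested. How many of all genes passed in that fit is not given here. Between WT-Tacr delayed and WT, likewise 0 of the 10 genes and 0% of all genes passed (edgeR), with 2 members (Nlrp3 and Pycard) and 3455 genes at an unadjusted p below 0.05 and 0 members passing in DESeq2. The intervals were -0.40 to 1.09 for Casp4, -0.13 to 0.32 for Il33 and 0.11 to 1.12 for Pycard.

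Delayed against acute tacrolimus gave 5 genes that were higher in the delayed mice, beside 20.3% of all genes: Pycard (1.14 ± 0.28, adjusted p = 0.0117, edgeR), Il1a (1.38 ± 0.37, adjusted p = 0.0144), Il33 (0.44 ± 0.12, adjusted p = 0.015), Casp4 (1.52 ± 0.43, adjusted p = 0.0178) and Casp1 (0.82 ± 0.29, adjusted p = 0.0465). Il1a was 1.69, 1.76, 3.06, 1.54 and 2.93 CPM in delayed and 0.584, 0.500 and 1.47 CPM in acute mice. Il33 was 69.6, 68.8, 62.4, 55.0 and 65.1 CPM against 48.8, 41.4 and 51.3 CPM. These 2 genes did not overlap between the groups, whereas for Casp1, Casp4 and Pycard acute replicate 3 lay among the delayed mice. None of the 10 passed without acute replicate 1 or without replicate 2, and 7 passed without replicate 3. Replicates 1 and 2 had the low macrophage and monocyte marker sums, whose part was not tested. Without delayed replicate 5, 3 genes passed. When only these groups were fitted none passed. The shares of all genes passing in these smaller fits are not given here, so a change in these counts cannot be told apart from a change over all genes.

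**Figure D3:**
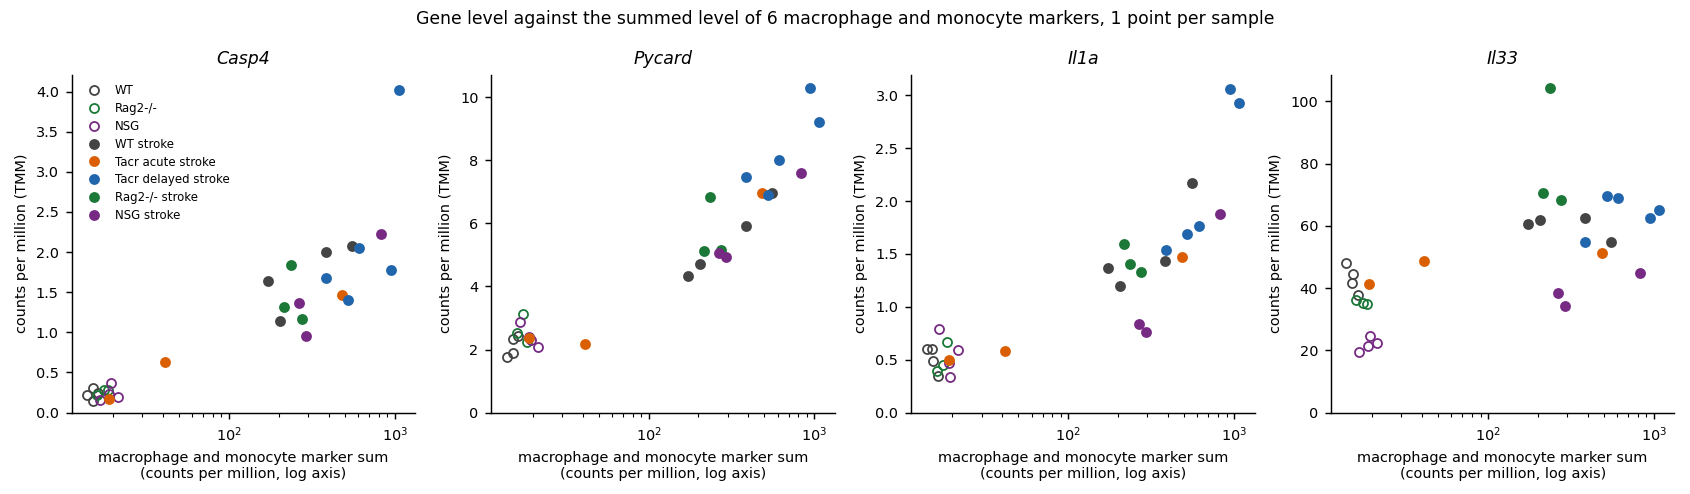
Level of Casp4, Pycard, Il1a and Il33 (TMM-scaled CPM, linear axis) against the summed level of 6 macrophage and monocyte markers (CPM, log axis), 1 point per sample, with open points for non-stroked mice. Non-stroked samples sit between 14.0 and 21.5 CPM of the marker sum, the WT-Tacr acute mice at 19.1, 41.3 and 484.1 CPM, and all other stroked samples between 172.8 and 1070 CPM. Casp4, Pycard and Il1a are higher in samples with a higher marker sum, while Il33 is lower in NSG than in WT mice at a like marker sum.

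Non-stroked NSG and WT mice differed in Il33 and Casp1. Between non-stroked NSG and WT mice, 2 of the 10 genes and 9.76% of all genes passed. Il33 was 21.3, 19.6, 22.4 and 24.4 CPM in NSG and 44.4, 48.2, 37.7 and 41.7 CPM in WT mice. The groups did not overlap, and the log2 fold change was -0.97 ± 0.12 (adjusted p = 1.34e-06, edgeR). Casp1 was 2.28, 2.16, 3.18 and 3.19 CPM in NSG and 1.62, 1.496, 1.09 and 1.37 CPM in WT mice, again without overlap and in the opposite direction (0.95 ± 0.28, adjusted p = 0.0283, edgeR). The Casp1 call was lost, with adjusted p of 0.0708 to 0.0974, without NSG replicate 3 or 4 or WT replicate 4 or 5. Il33 passed without any single library. Marker sums of astrocytes (4837 to 5691 CPM in NSG, 4739 to 5408 CPM in WT mice) and myelin (4270 to 7168 and 4084 to 5705 CPM) overlapped between these groups, while the microglia sum was 312.9 to 350.0 CPM in NSG and 242.1 to 281.7 CPM in WT mice. The part of the microglia in the Casp1 difference was not tested. Il1b was 0.142 to 0.635 CPM in NSG and 0.109 to 0.186 CPM in WT mice and did not pass (adjusted p = 0.163, edgeR).

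After stroke Il33 was still lower in NSG than in WT mice. This was the 1 gene of 10 that passed, beside 12.9% of all genes. It was 38.5, 44.8 and 34.1 CPM in NSG and 60.6, 61.8, 62.7 and 54.8 CPM in WT mice, without overlap (-0.62 ± 0.13, adjusted p = 0.00166, edgeR). The stroked NSG level overlapped that of non-stroked WT mice (37.7 to 48.2 CPM). Casp1 was 7.84, 4.97 and 2.69 CPM in stroked NSG and 2.47 to 4.28 CPM in stroked WT mice, and did not pass (0.69 ± 0.28, adjusted p = 0.106, edgeR), although it did without NSG replicate 3. When only these 7 samples were fitted, the adjusted p of Il33 was 0.0559 (edgeR) and none of the 10 passed. The share of all genes passing in that fit is not given here. The response to stroke itself, as a difference of differences between NSG and WT mice, passed for 0 of the 10 genes and 0.0294% of all genes (edgeR). Il33 alone among the members had an unadjusted p below 0.05, as had 2167 genes, and 0 members passed in DESeq2. Its difference was 0.36 with a 95% interval of 0.01 to 0.71 on the log2 scale.

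Between Rag2-/- and WT mice none of the members passed in any comparison. Non-stroked, 0 of the 10 genes passed (edgeR, 0 in DESeq2), beside 0.00587% of all genes, which is 1 gene of 17031, with 1 member (Il33) and 349 genes at an unadjusted p below 0.05. Il33 was 34.8 to 36.1 CPM in Rag2-/- and 37.7 to 48.2 CPM in WT mice, without overlap (-0.28 ± 0.12, adjusted p = 1). After stroke 0 of the 10 genes passed (edgeR, 0 in DESeq2), again beside 0.00587% of all genes, with 1 member (Il33) and 1196 genes at an unadjusted p below 0.05. Here Il33 was the higher in Rag2-/- mice, at 68.3 to 104.4 CPM against 54.8 to 62.7 CPM, without overlap (0.44 ± 0.12, adjusted p = 0.707, edgeR), and 0.22 ± 0.11 without stroked replicate 1. For the difference of the stroke responses 0 of the 10 genes and 0% of all genes passed (edgeR, 0 members in DESeq2), with 1 member (Il33) and 713 genes at an unadjusted p below 0.05. The Il33 response was larger in Rag2-/- mice by 0.72 on the log2 scale, with an unadjusted 95% interval of 0.36 to 1.08 and an adjusted p of 0.95, and by 0.52 ± 0.15 without stroked replicate 1. The intervals for the other members spanned 0, from -0.61 to 0.22 for Il18 to -6.18 to 4.75 for Il1rn, whose counts were 0 or 1 in non-stroked Rag2-/- mice.

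The balance of antagonist and agonist was then described per kilobase of exon. The level of Il1rn was 0 to 0.0984 times that of Il1b in non-stroked WT, 0 to 0.345 times in non-stroked Rag2-/- and 0.0276 to 0.276 times in non-stroked NSG mice. In stroked WT mice it was 0.298 to 1.45 times. It was 0.421 to 0.544 times in stroked Rag2-/- mice, 0.139 to 1.49 times in stroked NSG mice and 0.532 to 1.105 times in WT-Tacr delayed mice. In WT-Tacr acute mice the ratio was 0 in replicate 2, where Il1rn had no count, 0.0492 in replicate 1 and 0.932 in replicate 3. The ratio to Il1b was thus higher in every stroked WT, Rag2-/- and WT-Tacr delayed mouse than without stroke, whereas the ranges overlapped in NSG and WT-Tacr acute mice. Against Il1a and Il1b together, Il1rn was 0.0125 to 0.0555 times in non-stroked and 0.092 to 0.533 times in stroked NSG mice, without overlap. That ratio was 0 to 0.0352 in non-stroked WT, 0.0883 to 0.3455 in stroked WT and 0 to 0.295 in WT-Tacr acute mice. It was 0 to 0.0209 in non-stroked and 0.0685 to 0.156 in stroked Rag2-/- mice, and 0.1565 to 0.3275 in WT-Tacr delayed mice. The level of Casp4 was 0.0354 to 0.0888 times that of Casp1 in non-stroked WT mice and 0.178 to 0.268 times in stroked WT mice, 0.207 to 0.269 times in stroked Rag2-/- mice and 0.0703 to 0.181 times in stroked NSG mice. The NSG mice were at 0.0252 to 0.0470 times without stroke, so both the resting and the stroked NSG ranges reached only the lower part of the WT ranges. These ratios rest on few counts in non-stroked mice and were not tested.

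Across the 18 stroked samples, log2 CPM of Pycard went with that of Il1rn (Pearson r = 0.90) and Il1a (r = 0.90), and Casp4 with Il1rn (r = 0.87) and Il1a (r = 0.84). Il33 ranged from r = -0.14 with Il1b and Casp1 to 0.38 with Pycard, 0.43 with Casp4, 0.45 with Il1r1 and 0.52 with Il1a. The points share their library and group, so these values describe the samples and carry no test. Among 14356 candidate genes that averaged 1 CPM or more, those closest to Il1b over all 29 samples were Dcxr, Fcgr1 and Dpp7 (r = 0.873, 0.873 and 0.866). Those closest to Casp1 were Rps9, As3mt and Dpp7 (r = 0.905, 0.902 and 0.888), and Sspn and Tpp1 were closest to Il33 (r = 0.916 and 0.910).

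Around the 10 genes, 59 other genes of the pathway were listed in 6 groups, of which 51 passed the filter on low counts. After stroke in WT mice 28 of them were higher and 2 lower, with a median log2 fold change of 0.73, beside 26.9% of all genes passing in either direction. The counts were 18 higher and 0 lower in Rag2-/- mice (8.23% of all genes passing), 21 and 2 in NSG mice (21.9%), and 36 and 3 in WT-Tacr delayed mice (55.2%). They were 11 and 0 in WT-Tacr acute mice (8.54%), where the number fell to 0 without replicate 3 and rose to 19 without replicate 1. Between stroked groups, 20 were higher and 1 lower in delayed than in acute tacrolimus mice, beside 20.3% of all genes, and 0 passed without acute replicate 1 or without replicate 2. For the fits without a library the shares of all genes passing are not given here. None of the 51 passed between either tacrolimus group and stroked WT mice, where 0% of all genes passed. Between Rag2-/- and WT mice none passed either, beside 0.00587% of all genes in each direct comparison and 0% for the difference of responses.

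**Figure D4:**
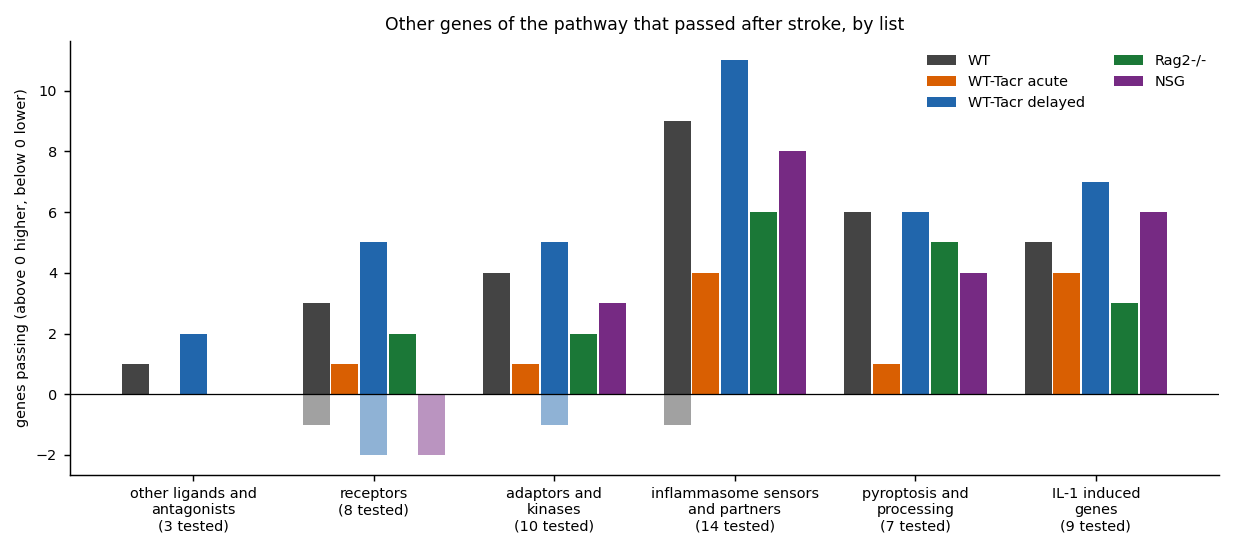
Number of genes in 6 lists of the IL-1 and inflammasome pathway that passed an adjusted p below 0.05 after stroke, as bars above 0 for higher and pale bars below 0 for lower genes, in 5 stroked groups, with the number tested under each list. Inflammasome sensors and partners (14 tested) contribute most, with 9 higher in WT, 11 in WT-Tacr delayed and 4 in WT-Tacr acute mice.

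The other ligands were scarce. Il36g, a cytokine of the IL-36 branch, had 2 to 11 counts per stroked and 0 per non-stroked WT library and was the 1 of 3 tested that passed in WT mice (adjusted p = 0.0102, edgeR). Il18bp, the decoy that binds IL-18, did not pass there (0.44 ± 0.25, adjusted p = 0.192, edgeR) but did in WT-Tacr delayed mice (1.12 ± 0.24, adjusted p = 0.000431, edgeR). Of 8 receptors 3 were higher and 1 lower in WT mice: Il1rl2, the IL-36 receptor (1.72 ± 0.30), Il18rap, the accessory chain for IL-18 (9 to 19 counts per stroked and 0 to 1 per non-stroked library), and Il1rl1, the IL-33 receptor (1.63 ± 0.47), rose, and the neuronal Il1rapl2 fell by 0.68. Below the receptors 4 of 10 adaptors and kinases passed, all higher: Irak2 (0.35 ± 0.07), Irak4 (1.06 ± 0.25), Tab1 (0.33 ± 0.10) and Myd88, the adaptor shared by IL-1 family receptors (0.45 ± 0.16).

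Among other inflammasome sensors and partners 9 of 14 were higher and 1 lower after stroke in WT mice. Txnip, a binding partner of Nlrp3 (1.25 ± 0.21), and Naip2, Naip5 and Naip6, receptors that recruit Nlrc4 (2.29 ± 0.41, 1.77 ± 0.34 and 1.56 ± 0.31), rose, although these Naip genes are close copies and reads may be split among them. Nlrc4 itself, named after its values were seen, was lower in stroked WT mice (0.167 to 0.278 CPM) than in non-stroked WT mice (0.370 to 0.769 CPM), by -1.31 ± 0.44 (adjusted p = 0.0294, edgeR). It was 0 to 0.142 CPM in non-stroked NSG mice (-3.26 ± 0.53 against WT, adjusted p = 0.000115, edgeR) and higher after stroke there, at 0.152 to 0.371 CPM (adjusted p = 0.0174, edgeR). The difference between these stroke responses was 3.37 ± 0.75 and did not pass (adjusted p = 0.0865, edgeR). Of 7 genes of pyroptosis and processing 6 were higher in WT mice, with Gsdmd, the pore-forming target of Casp1 and Casp4, at 1.74 ± 0.25 (adjusted p = 3.92e-05, edgeR), Casp12 at 2.34 ± 0.41, Ninj1, which ruptures the membrane of dying cells, at 1.19 ± 0.21, and the lysosomal protease Ctsb at 0.65 ± 0.14. Gsdmd also passed in WT-Tacr delayed (2.32 ± 0.24), Rag2-/- (1.22 ± 0.28) and NSG mice (0.92 ± 0.26).

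Of 9 genes known to be induced by IL-1 through NF-kB, 5 were higher in stroked WT mice. Icam1, the leukocyte adhesion molecule, was at 2.24 ± 0.34, Nfkbia, the NF-kB inhibitor, at 0.96 ± 0.18, Cxcl1, a neutrophil chemokine, at 3.23 ± 0.67, and Vcam1 at 0.73 ± 0.16 (adjusted p of 6.03e-05 to 0.00232, edgeR). Icam1 and Nfkbia also passed in Rag2-/- mice (1.95 ± 0.38 and 0.86 ± 0.21) and NSG mice (1.70 ± 0.34 and 1.70 ± 0.20). Il6 did not reach the filter. In non-stroked NSG against WT mice 3 of the 51 genes were higher and 4 lower, near the 9.76% of all genes that passed, and in stroked NSG against WT mice 1 was higher and 3 lower, beside 12.9% of all genes.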

How the data were processed

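RNA sequencing of polyA-selected RNA from stranded libraries was performed, with alignment and counting done by a sequencing center. Which aligner, genome build and strand setting were used is not given in the sources used here. The authors deposited 1 table per sample of raw read counts per Ensembl gene (25746 genes). Gene names and positions were taken from GENCODE M21 on GRCm38, where 25712 identifiers were found and 34 were not. Groups came from the genotype and treatment labels.

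Counts were tested in R 4.3.3 with edgeR 4.0.16 (limma 3.58.1): TMM normalization, filterByExpr by group, and a quasi-likelihood fit of 8 groups and 29 samples over 17031 genes. The study names edgeR without a design. A gene passed at a Benjamini-Hochberg adjusted p below 0.05. The SE is the absolute log2 fold change divided by the square root of F, and CPM uses the TMM-adjusted library size. A group at or under 3 counts in every library was treated as a floor. For correlations, 2 prior counts were added before log2 CPM was taken. Counting error alone limits genes with few counts.

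Alternatives were RLE normalization, other filters, a minimum fold of 2, the cohort as a covariate, the Imm2 cohort alone, DESeq2 1.42.0, fits restricted to the compared groups, a replicate block and leaving out each sample. The pipeline was tested on simulated counts. The 10 genes and the 59 pathway genes were chosen with earlier results of these data known. At most 4 pathway genes per list are named, in order of adjusted p in WT mice among those that passed, and the 3 most similar genes were listed for Il1b, Casp1 and Il33, of which 1 is not reported here. Promoter windows are from RefSeq on GRCm38.p6.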

Additional observations from a re-analysis of the deposited data

Results flagged for a closer look

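Gaps within groups of 4 or 5 samples were examined for the 10 genes in 40 combinations of gene and group, and chance marks about 1 in 20. Of the 40, 2 were marked, both in the same mouse, which is about what chance alone would mark. In WT-Tacr delayed mice, replicate 5 lay far above the other 4 mice for Il1rn, the IL-1 receptor antagonist, at 3.819 CPM (77 counts) beside 1.539 to 2.011 CPM. The same mouse lay far above the others for Casp4, at 4.018 CPM (81 counts) beside 1.408 to 2.047 CPM. Without it both genes were still past the threshold against non-stroked WT mice (adjusted p = 7.14e-05 for Il1rn and 1.02e-05 for Casp4, edgeR), with a Casp4 log2 fold change of 2.92 ± 0.42, and the Casp4 difference between delayed and acute tacrolimus was 1.19 ± 0.41 and short of it (adjusted p = 0.0632, edgeR). Its macrophage and monocyte marker sum of 1070 CPM was the highest of all samples, and the part of that in both values was not tested.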

How the results depend on the processing

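Of 2275 values of single genes under an alternative, 2138 kept their side of the threshold, 121 no longer passed and 16 newly passed. The sign changed in 116 of them, all for comparisons in which the gene passed neither as reported nor under the alternative. The counts of genes passing that moved by over 1.5 times were as follows, and the cause was not tested unless fewer samples or genes entered. Shares of all genes passing under each alternative, or without 1 sample, are not given here. A change in these counts therefore cannot be told apart from a change over all genes. After stroke in WT mice 5 passed in the Imm2 cohort alone. In WT-Tacr acute mice 1 passed with a mean of at least 1 CPM, which removes Il1b and Il1rn from testing, and 0 with the cohort as a covariate, in Imm2 alone or with only the groups compared. In WT-Tacr delayed mice 5 passed with the cohort as a covariate, and in NSG mice 4 with only the groups compared. Between non-stroked NSG and WT mice 0 passed with a minimum fold of 2. Between delayed and acute tacrolimus 3 passed with a minimum fold of 2, 3 with the cohort as a covariate and 0 with only the groups compared. Between stroked NSG and WT mice 0 passed with a minimum fold of 2, 2 with the cohort as a covariate and 0 with only the groups compared. Leaving out 1 replicate gave 8 to 9 in WT, 0 to 5 in WT-Tacr acute, 10 to 10 in WT-Tacr delayed, 2 to 8 in Rag2-/- and 6 to 10 in NSG mice after stroke, 1 to 2 for non-stroked NSG against WT, 0 to 4 for acute tacrolimus against WT, 0 to 7 for delayed against acute tacrolimus and 1 to 2 for stroked NSG against WT. A lone sample left in a cohort was assumed to vary like the other groups.

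The replicate numbers of non-stroked mice recur between strains, but nothing states a pairing, and residuals of equal numbers correlated at -0.258, 0.108 and -0.135 for NSG and WT and at 0.0775 and 0.0826 for Rag2-/- and WT. With a replicate block 1 gene passed between NSG and WT (Il33; Casp1 was at 1.05 ± 0.26, adjusted p = 0.0857, edgeR), beside 2 on the same samples without the block, and 0 between Rag2-/- and WT either way. Il1b, Il1rn and Casp4 had at most 25 counts in any non-stroked library, which limits their folds most.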
